A study of Mus musculus with 11 samples.

Results

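Gene expression in mouse fetal liver was compared between embryonic day 18 (E18, written E18.5 in the study's text) and embryonic day 14 (E14, or E14.5). The comparison used the 3 arrays titled as replicates 1 to 3 of E18 and the 3 titled as replicates 1 to 3 of E14, 6 of the 11 arrays of a time course that ran on to postnatal days 5 and 56 (P5, 2 arrays, and P56, 3 arrays). Each array carried liver RNA of 1 stage in the Cy5 channel and a commercial RNA of normal adult mouse liver, the same reference throughout, in the Cy3 channel, so every level below is a log2 ratio of liver to adult reference. No genotype, treatment or allele distinguished the stages, and no dye was swapped, so dye bias of single probes can shift a level but falls on both stages alike. The source names gave liver as the material and a cell type entry named hepatoblasts for E14 and immature hepatocytes for E18, while the protocol mentions RNA of both, from whole livers and from those isolated cells. Which of these was hybridised is not settled by the labels, and blood cell transcripts were abundant at both stages, as the erythroid values below show. In bulk RNA of this kind, fewer cells of a type and less RNA per cell cannot be told apart. Described here are the genes with a symbol outside the study's RXR-α and Wnt gene lists, 14741 of the 16697 genes and unnamed features that were bright enough to test.

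The fetal liver is the main blood-forming organ of the embryo as well as the site where hepatoblasts, the bipotential precursors, become hepatocytes and bile duct cells. Hepatocyte maturation is known to add secretion of plasma proteins, nitrogen and glucose metabolism, and the handling of bile acids and foreign compounds, part of it before birth and part after. Blood formation in the liver passes from erythroid predominance towards myeloid and early B cell production before it moves to the bone marrow.

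The 2 stages differed widely. Over all 16697 genes and features, 47.4% passed limma's test at an adjusted p of 0.05, 24.6% as higher and 22.8% as lower at E18. The sizes were unequal in the 2 directions, since 9.15% were higher and at least 2-fold apart but 1.95% were lower and at least 2-fold apart. Among the 14741 named genes, 3681 were called higher, 3439 lower and 7621 neither, and the 3 values of one stage did not overlap those of the other for 9345. At least 4-fold rises numbered 399 against 14 falls of that size. All 123 differences of 8-fold or more and all 27 of 16-fold or more were rises. The excess of rises depended on the processing. Over all genes and features, 1527 were at least 2-fold higher and 325 at least 2-fold lower. These counts were 2616 and 1330 with the scanner's processed signals and 1374 and 745 with the Cy5 channel alone. In the deposited gene table they were 2262 and 796. Larger differences were not counted under these alternatives. The median log2 difference was 0.79 for genes called higher, -0.56 for genes called lower and -0.02 over all named genes.

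**Figure D1:**
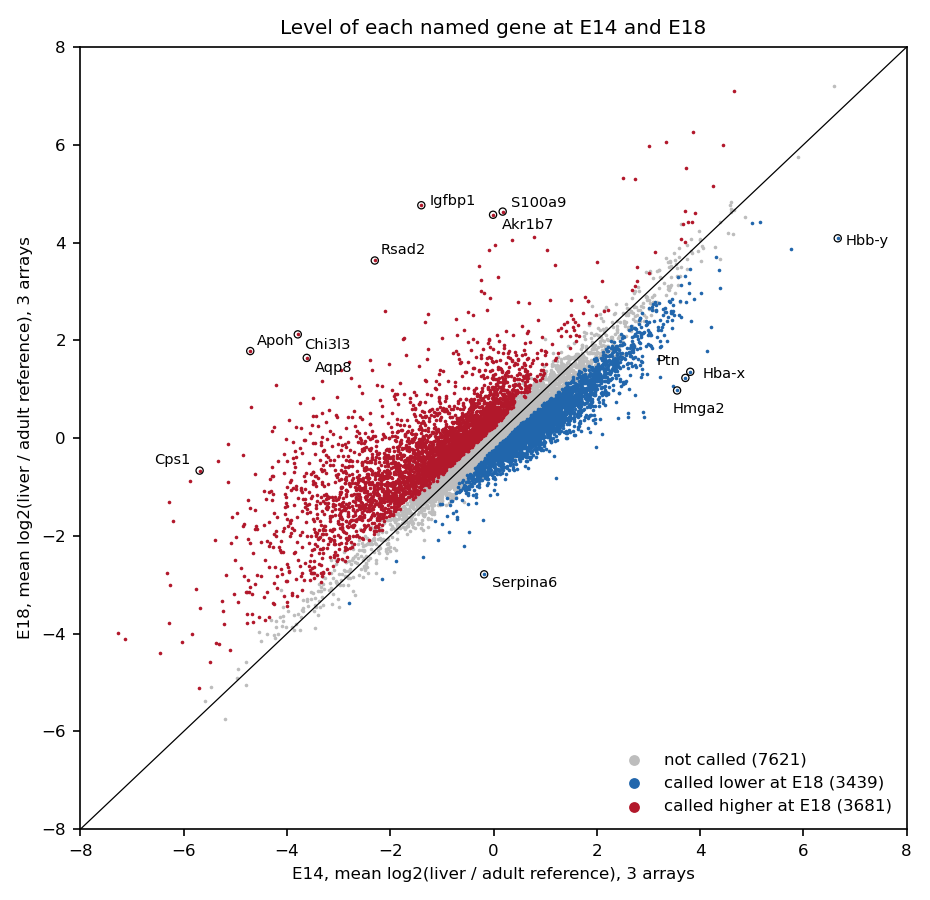
Each point is 1 of 14741 named genes, with its mean log2 ratio to adult liver reference over 3 E14 arrays on the x axis and over 3 E18 arrays on the y axis, and the line marks equal levels. Genes called higher at E18 (red, 3681) lie up to 6.49 log2 units above the line, at Apoh, while genes called lower (blue, 3439) lie at most 2.61 below it, at Serpina6.

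The genes called higher stood mostly below the adult reference at E14 and close to it at E18. Their median log2 ratio was -1.05 at E14, -0.20 at E18, -0.205 at P5 and -0.26 at P56. At E14, 51.5% of them were at least 2-fold below the reference, and at E18, 20.0%. The genes called lower had medians of 0.82 at E14, 0.23 at E18, 0.19 at P5 and 0.05 at P56, and the share at least 2-fold above the reference was 40.8% at E14 and 14.9% at E18. The postnatal values are given for orientation without a test.

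Replicates were close, with correlations of log2 ratios between 0.9875 and 0.99 at E14 and between 0.969 and 0.985 at E18, against 0.7925 to 0.8378 between stages. Of 43379 spots, 22027 to 23957 were well above background in Cy5 at E14 and 24415 to 25718 at E18. The scan times in the headers put the 3 E14 arrays and E18 replicate 1 in one scan and E18 replicates 2 and 3 in another. Within the first scan, where 1 E18 array faced 3 E14 arrays, all 3681 genes called higher and all 3439 called lower kept their sign, with medians of 0.75 and -0.52. These 4 arrays are part of the full comparison, so the second count repeats some of its values. E18 replicate 1 stood apart from the other E18 arrays for the embryonic globins, as described with those genes. The labels call the arrays biological replicates without saying whether livers were pooled, so the p-values measure the spread between these samples.

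The 15 largest rises, of which 14 are described, held plasma proteins, metabolic enzymes, 1 transporter, 1 water channel and 2 genes of immune cells or responses. Apoh, the phospholipid-binding plasma protein β2-glycoprotein I, read -4.63, -5.02 and -4.49 on the E14 arrays and 1.65, 1.93 and 1.76 on the E18 arrays. Every E18 value lay above the adult reference and every E14 value far below it. The log2 difference was 6.49 (SE 0.22, limma adjusted p = 2.3e-09), a 90.0-fold rise. Igfbp1, which binds insulin-like growth factors in plasma, read -1.44, -1.80 and -0.95 at E14 and 4.47, 5.09 and 4.73 at E18. Its rise of 6.16 (SE 0.50, limma adjusted p = 1.3e-06) took it far above the adult reference, where it also stood at P5 (mean 4.70) but not at P56 (-0.27).

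Rsad2, an antiviral protein induced by interferon, rose by 5.93, and Chi3l3 (Chil3), a chitinase-like protein secreted by myeloid cells, by 5.91. Uox, the urate oxidase of peroxisomes, read -4.59, -4.74 and -4.76 at E14 and 0.62, 0.55 and 0.72 at E18. Fgg, the fibrinogen gamma chain, rose by 5.30, the water channel Aqp8 by 5.26, Hao1, a peroxisomal glycolate oxidase, by 5.03, and Cps1, the entry enzyme of the urea cycle, by 5.03. BC026782, a complement-related plasma protein, rose by 5.01, the fatty acid hydroxylase Cyp4a14 by 4.86, the mucosal trefoil peptide Tff3 by 4.69, the aldo-keto reductase Akr1b7 by 4.58 and the organic anion uptake transporter Slco1b2 by 4.51. The rule that chose these genes asked for arrays that do not overlap between stages, so the gap is no finding. All 14 were well above background on all 6 arrays. Within the first scan alone the smallest of these rises was 4.60, at Akr1b7.

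**Figure D2:**
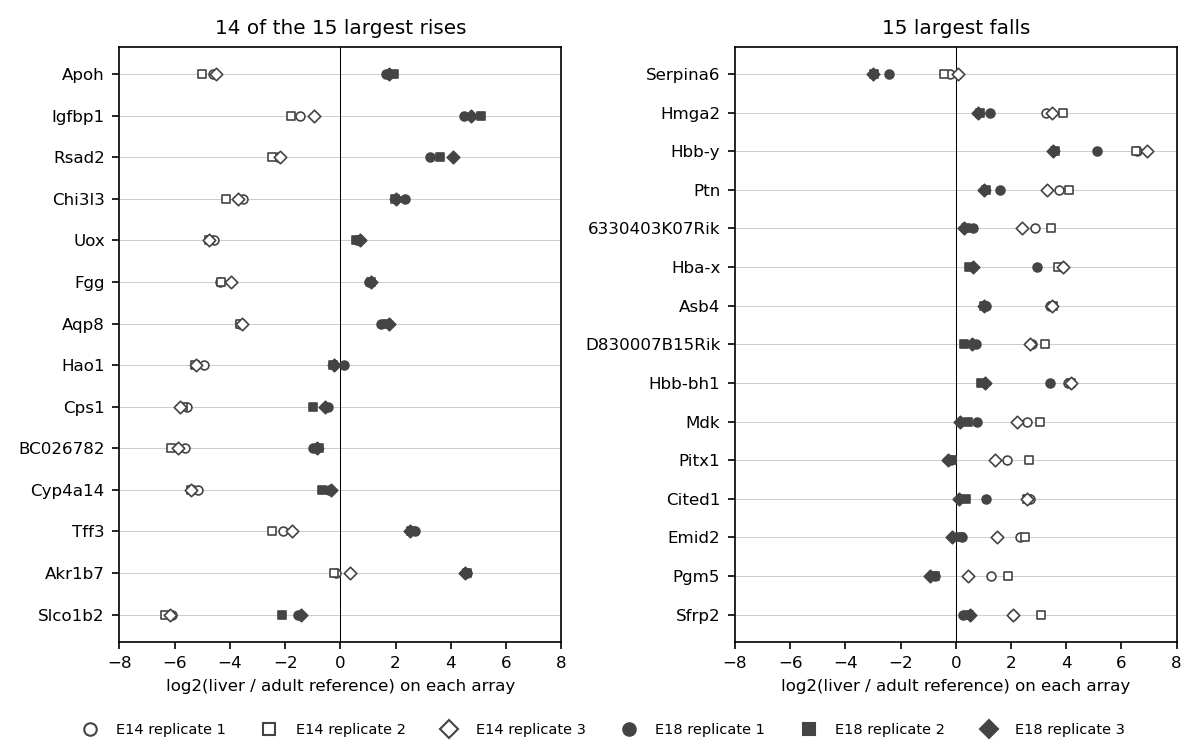
Log2 ratio to adult reference (x axis) on each of the 6 embryonic arrays for 14 of the 15 largest rises (left) and the 15 largest falls (right), with open symbols for E14, filled symbols for E18 and 1 symbol shape per replicate number. Genes were chosen so that the stages do not overlap, and in the 3 embryonic globins Hbb-y, Hba-x and Hbb-bh1 the filled circle of E18 replicate 1 lies well to the right of the other E18 arrays.

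Secreted plasma proteins rose almost throughout. Every one of the 22 coagulation factors and inhibitors tested was called higher, against 24.6% of all genes, with a median log2 difference of 2.86. The range ran from 0.97 for Pros1, the protein S gene, to 5.30 for Fgg. Fga, the fibrinogen alpha chain, read -4.76, -4.98 and -4.79 at E14 and -0.56, -0.24 and -0.22 at E18, a difference of 4.50 (SE 0.23, limma adjusted p = 3.5e-08). The 3 fibrinogen chains thus rose 3.75 or more, the smallest being Fgb, and prothrombin (F2) rose by 3.94. Kng1, the kininogen from which bradykinin is cut, rose by 4.48.

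Complement genes followed, with 18 of 20 called higher and a median of 2.31. C8b, a chain of the membrane attack complex, rose by 3.55. C6 and C9, of the same complex, were not called (0.53 and 0.07). Of 19 protease inhibitors, 18 were called higher (median 2.14), led by Itih3, an inter-alpha-trypsin inhibitor heavy chain (4.47), and Serpina1b, an α1-antitrypsin (3.94). The Serpina1 copies are nearly identical, so their separate values are uncertain.

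Of 23 plasma carriers and hormones, 20 were called higher and 1 lower, with a median of 2.49. Trf, the iron carrier transferrin, read -3.15, -3.03 and -2.70 at E14 and 1.32, 1.46 and 1.40 at E18. Its difference was 4.35 (SE 0.15, limma adjusted p = 2e-09), and Ahsg, fetuin A, rose by 4.34. Alb1, serum albumin, read -1.94, -1.74 and -1.50 at E14 and 0.56, 1.12 and 1.00 at E18, a rise of 2.62. Mup1, of the near-identical major urinary proteins, was called higher by 1.86, but its E14 replicate 3 read -7.48 against -5.32 and -5.31 on the other E14 arrays, leaving out single arrays gave 1.14 to 2.22, and the call was lost without E18 replicate 3.

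Serpina6, which encodes corticosteroid-binding globulin, the plasma carrier of glucocorticoids, went against its list and over all arrays was the largest fall of all named genes. It read -0.20, -0.42 and 0.07 at E14 and -2.41, -2.95 and -3.01 at E18. The E14 arrays were near the adult reference, and every E18 array was well below it. It fell by 2.61 (SE 0.18, limma adjusted p = 3.9e-07), a 6.09-fold difference, and by 2.22 within the first scan. The means at P5 and P56 were -3.27 and -1.82. Without E18 replicate 1, the embryonic globins Hbb-y, Hba-x and Hbb-bh1 fell by more than Serpina6 (3.09, 3.25 and 3.16).

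Apolipoproteins and lipoprotein assembly genes were called higher in 13 of 15 (median 1.28), with Apof, a lipid transfer inhibitor, at 4.33 after Apoh. The acute phase list had 13 of 16 called higher and the same median of 1.28. Apcs, serum amyloid P component, rose by 3.50 and the copper protein Cp, ceruloplasmin, by 3.02, while Saa1 rose by 0.46. Iron handling had 10 of 16 called higher (median 1.19). Among its members, the ferritin chains Fth1 and Ftl1 were not called (-0.04 and 0.01) and the transferrin receptor Tfrc was not either (-0.53, limma adjusted p = 0.094), whereas the hepatocyte receptor Trfr2 rose by 1.82 and hepcidin (Hamp1) by 1.04.

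Metabolic enzymes rose in most lists. The urea cycle and ammonia list had 10 of 12 called higher (median 1.67). Cps1 read -5.56, -5.71 and -5.81 at E14 and -0.45, -0.99 and -0.56 at E18 (difference 5.03, SE 0.16, limma adjusted p = 1.8e-09). Arg1, which releases urea from arginine, rose by 3.74, Ass1 by 2.29 and Otc, with 1 E14 array missing, by 1.93. The 2 members not called were Slc25a15 and Oat (0.04 and -0.18).

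Amino acid breakdown had 32 of 37 called higher and none lower (median 1.49). Agxt, which converts glyoxylate to glycine, rose by 3.37 and Upb1, of pyrimidine breakdown, by 3.13. Tdo2, the liver tryptophan dioxygenase, was not called (0.20), and Tat, the tyrosine aminotransferase, rose 2.14-fold. Gluconeogenesis and glycogen genes were called higher in 16 of 18 (median 2.17). Pygl, liver glycogen phosphorylase, read -3.06, -3.19 and -2.82 at E14 and 0.76, 0.86 and 0.89 at E18, and its rise of 3.86 was followed by the branching enzyme Gbe1 at 3.64 and G6pc, the enzyme that releases free glucose, at 3.18. Pck1, the cytosolic enzyme that commits carbon to glucose, read -5.60, -5.78 and -5.71 at E14 and -5.14, -5.07 and -5.11 at E18. All 6 of its values were thus far below the adult reference, and the difference of 0.59 (limma adjusted p = 0.02) lost its call without E14 replicate 2 or 3 or E18 replicate 2 or 3. At P5 the mean was -0.36.

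Glycolysis and glucose uptake had 6 of 17 called higher (35.3%) and 3 lower (17.6%), against 24.6% and 22.8% of all genes. The list's median of 0.09 turned to -0.28 with the Cy5 channel alone. The lactate dehydrogenase subunits went opposite ways. Ldha read 0.45, 0.61 and 0.91 at E14 and 2.27, 2.22 and 2.09 at E18, a rise of 1.54. Ldhb read 3.18, 3.23 and 3.22 at E14 and 1.33, 1.24 and 1.18 at E18, a fall of 1.97 (SE 0.10, limma adjusted p = 6.5e-08). Aldoc, a brain-type aldolase, rose by 2.51, and the glucose transporter Slc2a1 of red cells and fetal tissues fell by 0.90 while the hepatocyte transporter Slc2a2 rose by 2.81.

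Fatty acid oxidation and ketogenesis had 27 of 35 called higher (median 0.99), led by the thiolase Acaa2 (3.01) and the medium-chain dehydrogenase Acadm (2.94). Acadm read -2.42, -2.66 and -2.54 at E14 and 0.40, 0.45 and 0.35 at E18. Pdk4, which restrains pyruvate oxidation, rose by 2.52. Fatty acid synthesis had 17 of 19 called higher (median 1.35), with Lpin1, a phosphatidate phosphatase, at 3.78, Acacb, an acetyl-CoA carboxylase, at 2.98 and the lipogenic factor Srebf1 at 1.99. A second probe of Acacb, well above background on 2 arrays of each stage, read 0.16. Cholesterol synthesis and uptake had 19 of 23 called higher (median 1.13), with Insig1, a sensor of sterols, and Sc5d, a desaturase, both at 2.36. A second bright probe gave 1.33 for Insig1 and 1.04 for Sc5d. The synthesis genes were low again at P5, where the list medians were -0.93 for fatty acid and -1.24 for cholesterol synthesis against -0.18 and 0.01 at E18. These later levels were not tested.

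Oxidative phosphorylation subunits changed little, with 14 of 66 called higher and 3 lower, close to or below the shares over all genes. The median of 0.18 became -0.17 with the Cy5 channel alone, and the members called higher numbered 8 without E18 replicate 1, 7 without E14 replicate 2 and 19 within the first scan. The largest rise was Sdha, of complex II, at 0.85. In the citric acid cycle 6 of 18 were called higher (33.3%) and 3 lower (16.7%), against 24.6% and 22.8% of all genes. The median of 0.05 turned to -0.03 both with arrays centred on their median and with the Cy5 channel alone. Mdh1, the cytosolic malate dehydrogenase, rose by 1.51 and Idh3a, a subunit of isocitrate dehydrogenase, fell by 0.87.

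Drug-metabolising enzymes and transporters rose as well, and many stayed far below the adult reference. Of 45 cytochrome P450 genes, 32 were called higher and none lower (median 1.48), and the list median level was -3.84 at E14, -1.65 at E18, -1.17 at P5 and -0.62 at P56. Cyp4a14 read -5.15, -5.42 and -5.42 at E14 and -0.41, -0.66 and -0.35 at E18, and Cyp2d26 rose by 4.44. Cyp39a1, an oxysterol hydroxylase, read -1.17, -1.32 and -1.48 at E14 and 2.39, 2.24 and 2.49 at E18, above the adult reference. Cyp3a11 rose by 1.43, Cyp2e1 by 1.59, and Cyp1a2 was not called (0.16). Cyp2c54 rose by 1.50 over all arrays and by 0.75 within the first scan. Members of the Cyp2c, Cyp2d and Cyp3a families resemble each other closely, so a probe may read more than 1 of them.

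Conjugating enzymes had 19 of 33 called higher (median 0.87), and their median level at E18 was still -2.28. Ephx2, a soluble epoxide hydrolase, rose by 2.57 and the glutathione transferase Gsta1 by 2.54. Bile acid enzymes and membrane transporters had 19 of 28 called higher and 1 lower (median 1.14). Aqp8 read -3.64, -3.65 and -3.56 at E14 and 1.46, 1.68 and 1.78 at E18, and Slc10a1, the sodium-dependent bile acid uptake carrier, rose by 2.92. Slco1b2 stayed below the reference at E18 (-1.53, -2.12 and -1.44). The thyroid hormone and amino acid carrier Slc16a10 was the member called lower (-0.64).

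The growth hormone and insulin-like growth factor (IGF) axis had 11 of 15 called higher and 2 lower (median 0.75). Igfbp2 rose by 3.33 and Socs2, an inhibitor of growth hormone signalling, by 2.28, while Igf2 rose by 0.94 and Igf1 by 0.56. Igfbp5 was called lower by 1.05, but its E14 values of 2.32, 3.13 and 1.60 were wide, and the call was lost without E14 replicate 2, E18 replicate 2 or E18 replicate 3. Glucocorticoid and thyroid response genes were called higher in 9 of 11 (median 1.01). Hsd11b1, which regenerates active glucocorticoid inside cells, read -5.14, -5.52 and -5.51 at E14 and -2.16, -2.03 and -2.04 at E18. Its rise was 3.31 (SE 0.12, limma adjusted p = 3.4e-09). The glucocorticoid-induced Tsc22d3, Fkbp5 and Per1 rose by 1.53, 1.01 and 1.34, while the list members Dusp1 and Dio1 were not called (0.22 and 0.08). Whether glucocorticoid action changed was not tested.

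Of 28 hepatocyte transcription factor genes, 22 were called higher and 1 lower (median 0.91). Cebpa, which drives many hepatocyte genes, read -2.49, -3.04 and -2.83 at E14 and -0.55, -0.49 and -0.38 at E18 (difference 2.31, SE 0.15, limma adjusted p = 2.6e-07). Another bright probe of Cebpa rose by only 0.60. Rora rose by 2.16. Onecut1 rose by 1.91, Prox1 by 1.68 and Hhex by 1.13, while Foxa1 and Gata4 were not called (0.27 and 0.08). Gata6, active in early endoderm and mesoderm, fell by 1.23. Junction and polarity genes were called higher in 18 of 22 (median 1.18), with the tight junction protein Cldn1 at 3.09, E-cadherin (Cdh1) at 2.51, the gap junction protein Gjb2 at 2.32 and the keratins Krt8 and Krt18 at 1.59 and 1.80.

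Endoplasmic reticulum folding and stress genes had 16 of 32 called higher and 1 lower (median 0.30). Herpud1, of protein disposal, rose by 2.23 and the disulfide isomerase P4hb by 1.66. Dnajc3, Dnajb9, Edem1 and Hspa5 were also called higher, by 1.45, 1.31, 1.26 and 0.66. The list members Ddit3, Atf4 and Trib3 were not called (-0.20, -0.32 and -0.10). Antioxidant genes had 6 of 22 called higher and 6 lower (27.3% each), near the 24.6% and 22.8% of all genes. The median of 0.02 changed sign under 7 alternatives (-0.33 to 0.25). Peroxiredoxin Prdx5 was at 1.25 and glutathione peroxidase Gpx1 at -0.65. The circadian clock list had 8 of 15 called higher (median 0.43), led by Bhlhb2 (Bhlhe40) at 2.15 and Nfil3 at 1.63, while Per2 and Nr1d1 were not called (-0.28 and 0.02). The hour at which livers were taken is not given in the sources used here.

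**Figure D3:**
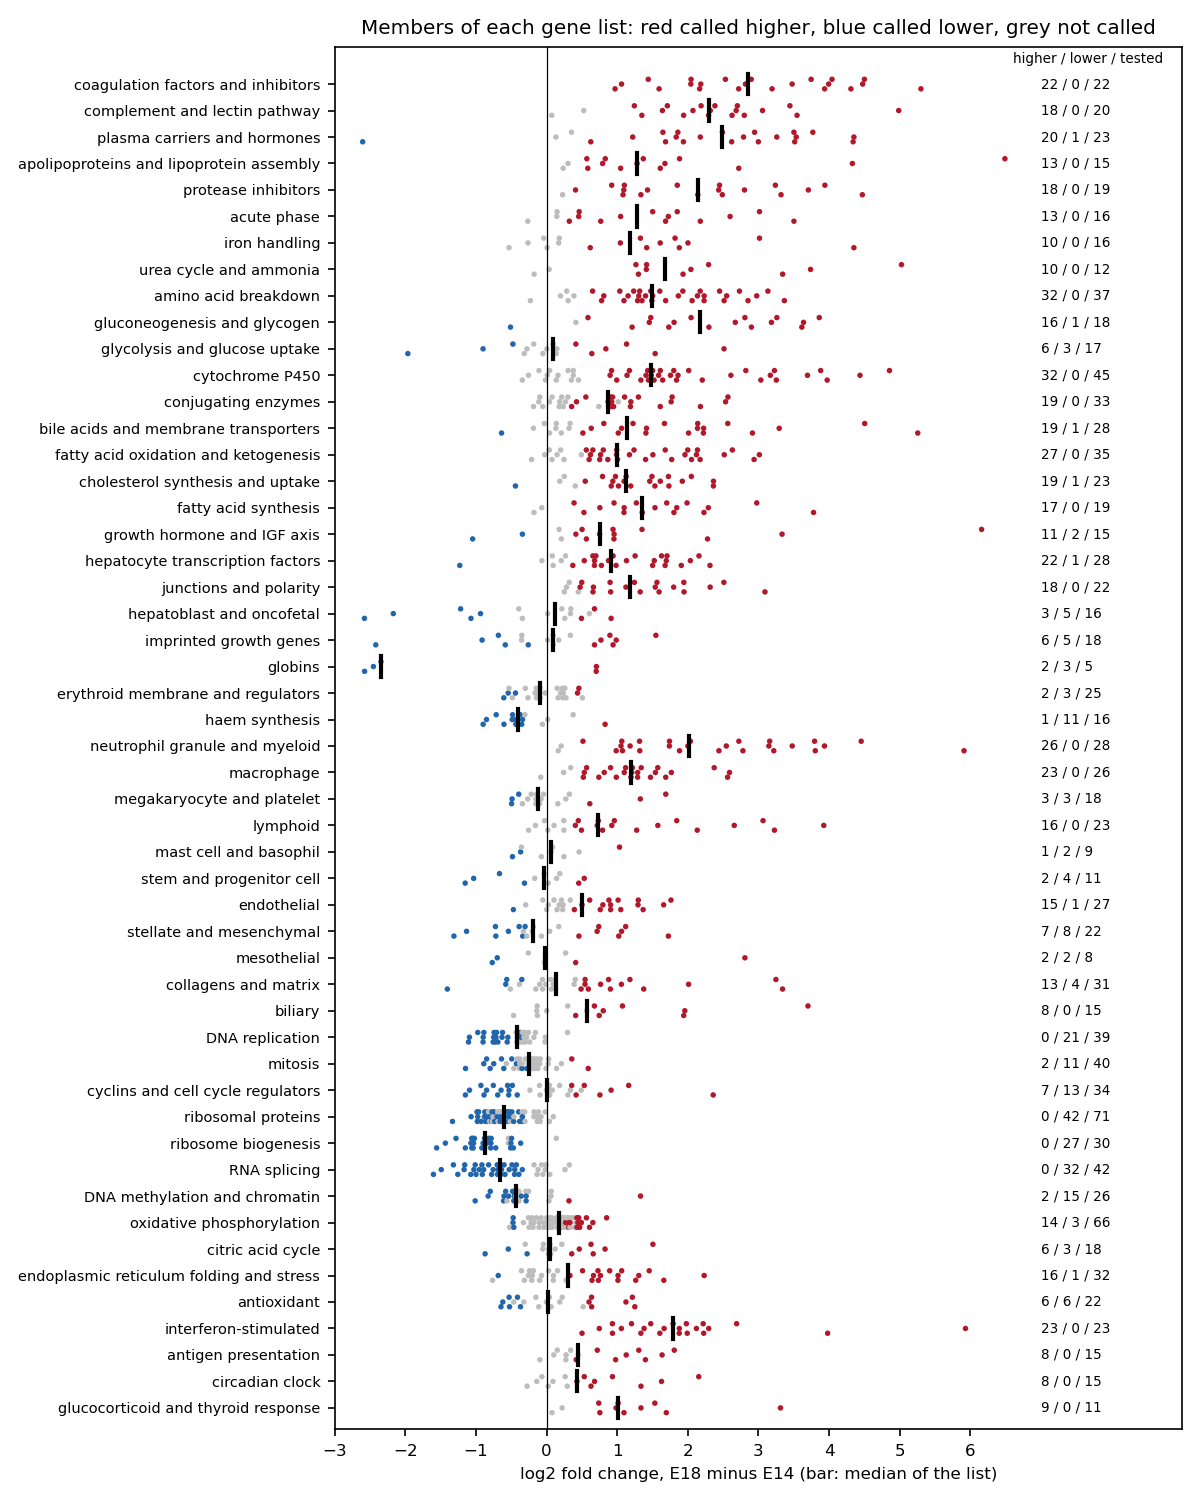
Log2 difference E18 minus E14 (x axis) of every tested member of 51 gene lists, 1 row a list, coloured by call, with a bar at the list's median and the numbers called higher, called lower and tested at the right. Lists of plasma proteins, hepatocyte metabolism, neutrophil and interferon genes lie mostly to the right of 0, with Serpina6 (-2.61) the far exception, and those of ribosome biogenesis and RNA splicing mostly to the left.

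Interferon-stimulated genes were called higher in 23 of 23 (median 1.79), and 23 were also called without E18 replicate 1, without E14 replicate 2 and within the first scan. Rsad2 read -2.25, -2.49 and -2.17 at E14 and 3.23, 3.60 and 4.07 at E18 (difference 5.93, SE 0.22, limma adjusted p = 3.9e-09). Isg15, a ubiquitin-like modifier, read -2.71, -2.82 and -2.73 at E14 and 0.93, 0.90 and 1.85 at E18, with E18 replicate 3 the highest in both genes, and its difference was 3.98. The GTPase Igtp rose by 2.69, Ifit1, which binds viral RNA, by 2.30, and Usp18, which removes Isg15 from proteins, by 2.22. Ifi44 was not well above background on any E14 array and rose at least 3.48-fold (limma adjusted p = 2.4e-05), Mx1 likewise at least 1.28-fold. The signal transducer Stat2 rose by 1.88 and Irf7 by 1.06. Relative to adult reference, Rsad2 and Isg15 stood above it on every E18 array, while the list median was -2.82 at E14, -0.87 at E18, -1.35 at P5 and -1.32 at P56.

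RefSeq promoters, from 250 bases before to 50 after the start, were found for 17 of the 23 genes, and 12 of these genes held the letters GAAANNGAA, the core of the interferon-stimulated response element, on either strand. The motif was added after these genes had been seen. Of all 32851 promoters, 8.56% held it, and since 6 genes of the list had no promoter in the table the shares are not compared. A match is a description of letters and not a bound site. The promoters of 3 members with large rises are shown as the 150 bases that end before the start, 5′ to 3′ on the gene's strand, in build GRCm38.p6, with matches in capitals. They lie at chr4:156200819-156200968 (Isg15, minus strand), chr12:26456453-26456602 (Rsad2, minus strand) and chr19:34640739-34640888 (Ifit1, plus strand).
Isg15: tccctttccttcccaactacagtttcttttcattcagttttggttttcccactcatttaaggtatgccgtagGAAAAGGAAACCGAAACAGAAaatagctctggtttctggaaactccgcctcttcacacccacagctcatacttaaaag
Rsad2: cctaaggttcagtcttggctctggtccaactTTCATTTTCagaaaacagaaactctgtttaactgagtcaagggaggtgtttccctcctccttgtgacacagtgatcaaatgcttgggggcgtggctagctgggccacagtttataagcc
Ifit1: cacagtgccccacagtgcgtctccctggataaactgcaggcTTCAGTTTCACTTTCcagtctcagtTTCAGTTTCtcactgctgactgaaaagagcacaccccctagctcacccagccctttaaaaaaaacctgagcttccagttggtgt
Isg15 held 3 overlapping matches, beginning 78, 72 and 66 bases before the start, and Ifit1 held 3, beginning at 109, 103 and 84. In Rsad2 the single match began at 119. Over all named genes tested, 11288 of 14741 (76.6%) had a promoter in the table, which is too few to compare motif shares between the genes called higher and lower.

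Antigen presentation genes had 8 of 15 called higher (median 0.45). The class I genes H2-T23 and B2m rose by 1.81 and 1.64, and H2-K1, which shares sequence with other class I genes, by 1.31. The class II genes H2-Ab1 and H2-Eb1 were not called (0.15 and 0.27). Among other members, Cd74, of the class II pathway, rose by 0.72, and the class I transporter gene Tap1 was not called (0.28).

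Neutrophil granule and myeloid genes were called higher in 26 of 28 (median 2.02), with the same 26-gene count without E18 replicate 1 and without E14 replicate 2. S100a9, a calcium-binding protein of neutrophils, read 0.21, 0.01 and 0.31 at E14 and 4.44, 4.78 and 4.67 at E18 (difference 4.46, SE 0.29, limma adjusted p = 2.3e-07). Chi3l3 read -3.53, -4.14 and -3.70 at E14 and 2.34, 2.00 and 2.03 at E18. The cathelicidin Camp rose by 3.94, lactoferrin Ltf by 3.81, the granule protease Ctsg by 3.15 and Mpo, myeloperoxidase, by 1.74. The eosinophil genes Prg2 and Epx were not called (0.21 and 0.17).

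Macrophage genes had 23 of 26 called higher (median 1.20). Cd5l, a secreted macrophage protein, read -3.996, -4.47 and -4.14 at E14 and -1.80, -1.59 and -1.44 at E18. The Kupffer cell lectin Clec4f rose by 2.56, Emr1, the F4/80 antigen, by 1.69 and the receptor Csf1r by 1.21. The median level of the list was -2.34 at E14, -1.12 at E18, -1.01 at P5 and -1.69 at P56.

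The lymphoid list had 16 of 23 called higher (median 0.73), and its large rises were genes of B cell precursors. Of the 23, 8 were not well above background on any E14 array, and with dim genes at their bound the median was 0.72. Vpreb1, part of the pre-B cell receptor, read 0.09, -0.12 and 0.11 at E14 and 3.76, 4.08 and 4.02 at E18 (difference 3.93, SE 0.26, limma adjusted p = 2.7e-07). Vpreb3 rose by 3.07, Pou2af1, a B cell coactivator, by 3.23 and the receptor chain Cd79b by 2.13. Igll1, Rag1 and Pax5 were not well above background on any E14 array. Pax5 rose at least 2.37-fold, while for Igll1 and Rag1, called higher with log2 ratio differences of 1.84 and 1.58, no bound is given because the one from the Cy5 channel exceeded the fold of the ratios. Igh-6, the immunoglobulin M heavy chain, was in no list and rose by 3.69. The T cell genes Cd3d, Cd3g, Cd4, Cd8a and Lck were not called (-0.26 to 0.24), although Cd3e was, by 0.45.

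**Figure D4:**
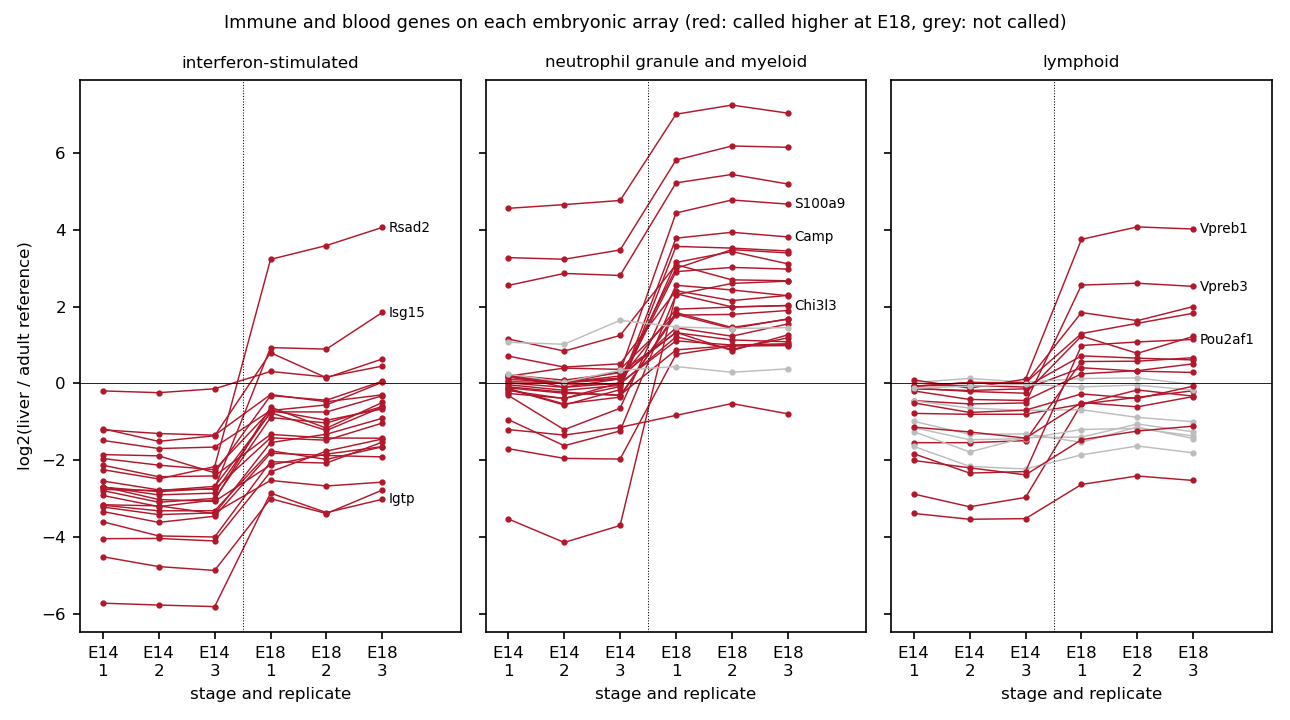
Log2 ratio to adult reference (y axis) of every tested gene of 3 lists on the 6 embryonic arrays (x axis), with red lines for genes called higher at E18 and grey lines for genes not called. A line joins the values of 1 gene and replicates have no order; Rsad2 goes from -2.49 to -2.17 at E14 to 3.23 to 4.07 at E18, and Vpreb1 from -0.12 to 0.11 to 3.76 to 4.08.

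Erythroid genes changed little. Of 25 membrane proteins and regulators, 2 were called higher and 3 lower, with a median of -0.09 that turned to 0.17 with background subtracted and to 0.03 with the scanner's processed signals. Their mean level per array lay between 3.28 and 3.43 at E14 and between 3.31 and 3.34 at E18, far above the adult reference at both stages. Epor, the erythropoietin receptor, fell by 0.54 and Slc4a1, the anion exchanger of red cells, rose by 0.44 but read -0.10 with the Cy5 channel alone. Haem synthesis had 11 of 16 called lower and 1 higher (median -0.40), 7 lower without E18 replicate 1. BC010801 (Slc25a38), the mitochondrial glycine carrier, fell by 0.90, Urod by 0.85, Uros by 0.71 and Alad by 0.60, while Alas2, the erythroid first enzyme, was not called (0.38, limma adjusted p = 0.35). Hmox1, which breaks haem down, rose by 0.83.

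The globins moved in opposite directions by type. Hbb-y, an embryonic β-like globin, read 6.55, 6.51 and 6.93 at E14 and 5.12, 3.61 and 3.53 at E18, a fall of 2.58 (SE 0.39, limma adjusted p = 0.00019). Hba-x, the embryonic α-like globin, read 3.87, 3.69 and 3.87 at E14 and 2.95, 0.50 and 0.62 at E18, and Hbb-bh1 read 4.06, 4.16 and 4.18 and then 3.41, 0.90 and 1.05. On E18 replicate 1 all 3 embryonic globins were much higher than on the other E18 arrays, although still below every E14 array. Within the first scan, which holds that array, the falls were 1.55, 0.86 and 0.72 for Hbb-y, Hba-x and Hbb-bh1, and without that array they were 3.09, 3.25 and 3.16. The size of these falls therefore rested on 1 array, and scan and replicate cannot be told apart for it.

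The adult-type globins gave smaller and less certain rises. Hbb-b1 read 3.87, 3.94 and 3.90 at E14 and 4.39, 4.94 and 4.50 at E18 (difference 0.70, limma adjusted p = 0.0094), and Hba-a1 differed by 0.71 (limma adjusted p = 0.038). With the Cy5 channel alone both turned to -0.14 and -0.13. The call of Hba-a1 was lost without E14 replicate 1, 2 or 3 and without E18 replicate 2 or 3. Both calls were lost with scan as a block (limma adjusted p = 0.12 and 0.31). The differences were then 0.48 for Hbb-b1 and 0.51 for Hba-a1. They rested on E18 replicate 1, the only E18 array scanned with E14. Another probe of Hbb-b1 read -0.37. Globin genes share sequence, so a probe may read several of them.

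**Figure D5:**
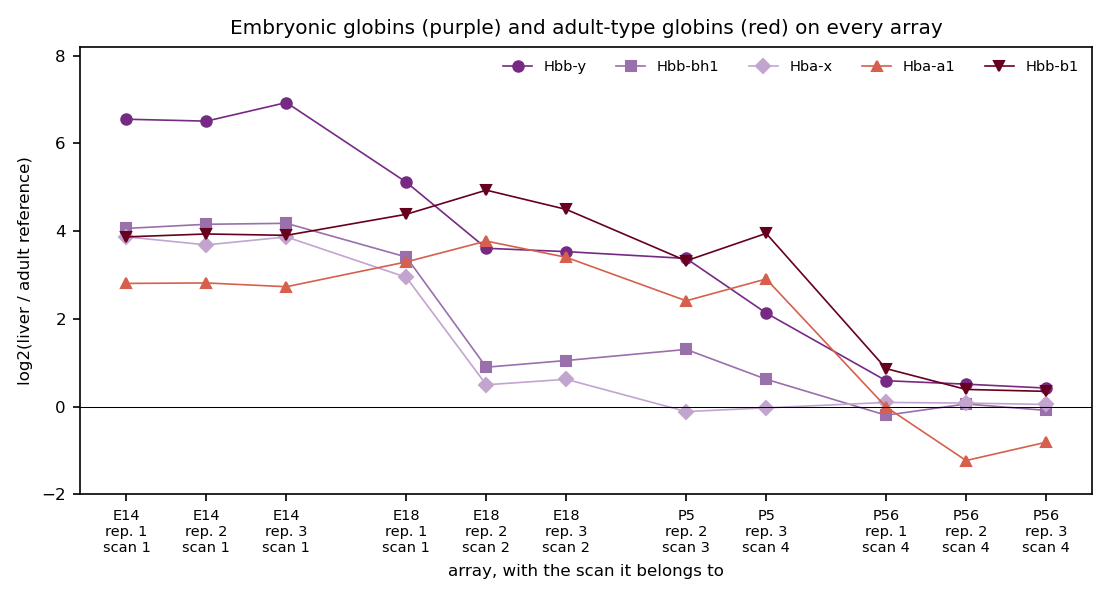
Log2 ratio to adult reference (y axis) of 3 embryonic globins (purple) and 2 adult-type globins (red) on all 11 arrays (x axis), which are marked with stage, replicate and scan. Hbb-bh1 is at 3.41 on E18 replicate 1 but at 0.90 and 1.05 on the other E18 arrays, and lines only join values of 1 gene.

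Other blood lists were small and had calls in both directions. Shares called higher and lower were 16.7% and 16.7% for megakaryocyte, 11.1% and 22.2% for mast cell, and 18.2% and 36.4% for stem and progenitor genes. Over all genes they were 24.6% and 22.8%. Megakaryocyte and platelet genes had 3 of 18 called higher and 3 lower. Their median of -0.12 was 0.30 over the members bright at every stage. Their lower calls fell to 1 without E14 replicate 2 and to 0 with scan as a block. Itgb3, an integrin shared with other cells, rose by 1.69, and on another bright probe by 0.36. Mast cell and basophil genes had 1 of 9 called higher, Hdc at 1.03, and 2 lower, of which 1 was left without E18 replicate 1 or without E14 replicate 2. Within the first scan the mast cell counts were 3 higher and 0 lower. Stem and progenitor genes had 2 of 11 called higher and 4 lower, with Cd34 falling by 1.03 and Hoxa7 by 1.15, while Kit and Myb were not called (0.14 and 0.19).

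The oncofetal list had calls in both directions. Of its 16 members 5 were called lower, namely Hmga2, Mdk, Hmga1, Lin28b and Igf2bp1, and 3 higher. These are 31.2% lower and 18.8% higher, not far from the 22.8% and 24.6% of all genes. The median of 0.12 turned to -0.02 with arrays centred on their median and to -0.24 with the Cy5 channel alone. Hmga2, an architectural chromatin protein of embryonic cells, read 3.28, 3.89 and 3.49 at E14 and 1.23, 0.87 and 0.82 at E18 (fall of 2.58, SE 0.19, limma adjusted p = 5.1e-07). Hmga1 fell by 1.22, and Lin28b, which blocks let-7 maturation, by 1.07. Afp, α-fetoprotein, did not follow them. It read 6.80, 6.43 and 6.56 at E14 and 7.10, 7.44 and 7.06 at E18, a difference of 0.61 (limma adjusted p = 0.072), and both H19 and Gpc3, a cell surface proteoglycan, rose, by 0.68 and 0.91. Dlk1, a hepatoblast surface protein, differed by 0.01. Imprinted growth genes had 6 of 18 called higher (33.3%) and 5 lower (27.8%), against 24.6% and 22.8% of all genes. Their median of 0.09 turned to -0.13 with the Cy5 channel alone. Grb10, an adaptor that restrains growth signals, rose by 1.55 and Asb4 fell by 2.42, with E14 values of 3.42, 3.52 and 3.48 and E18 values of 1.097, 1.04 and 1.03.

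The 15 largest falls also held growth factors, patterning factors and a collagen. Ptn and Mdk, heparin-binding growth factors, fell by 2.48 and 2.17. Pitx1, a homeobox factor of limb and pituitary development, read 1.85, 2.66 and 1.42 at E14 and -0.16, -0.15 and -0.26 at E18, a fall of 2.17. Sfrp2, a secreted Wnt-binding protein, read 2.08, 3.07 and 2.08 at E14 and 0.28, 0.47 and 0.50 at E18. Emid2 (Col26a1), a collagen, was not well above background on any E18 array, where its log2 ratio fell by 2.02 (limma adjusted p = 1.1e-05), and no bound is given for the same reason as for Igll1. Cited1, a transcriptional coregulator, fell by 2.09, the phosphoglucomutase relative Pgm5 by 2.01, and the uncharacterised 6330403K07Rik and D830007B15Rik by 2.48 and 2.35.

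In 10 of the 15 largest falls the highest E14 array was replicate 2, in 2 it was replicate 1 and in 3 replicate 3. Without E14 replicate 2 the falls were 1.83 for Pitx1, 1.66 for Sfrp2, 1.67 for Pgm5, 2.28 for Ptn and 1.96 for Mdk, and all were still called. Further falls outside every list, chosen after their values were seen, included the mesenchymal transcription factors Twist1 (-1.40), Scx (-1.39) and Prrx2 (-1.41), whose E14 replicate 2 read 2.19, 2.07 and 1.72. Muscle genes were present as well. Of 11 tested, 5 were called lower and none higher (median -0.23), against 2 lower within the first scan and 1 higher without E14 replicate 2, with array means of 0.47 to 1.04 at E14 and 0.36 to 0.43 at E18, and Myl1, of skeletal muscle, read 1.37, 2.03 and 0.37 at E14 and 0.30, 0.09 and 0.14 at E18. Whether RNA of neighbouring tissue had a part in these falls was not tested.

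Markers of other organs gave small counts. Pancreas genes were called higher in 8 of 11 (median 0.81), with Amy2 at 3.08, although amylase genes share sequence and liver makes amylase too. Cpb1, a pancreatic carboxypeptidase, read -4.60, -5.01 and -5.06 at E14 and -2.11, -2.39 and -3.45 at E18. The list's array means were -2.74 to -2.47 at E14 and -1.83 to -1.28 at E18, and its median level was -2.96 at E14, -1.15 at E18 and -2.04 at P56. Gut and stomach genes had 4 of 8 called higher and 1 lower (median 0.31), and apart from Tff3 the largest was Lgals4, a gut lectin, which rose 2.15-fold. The higher calls were 2 without E18 replicate 1 and 2 without E14 replicate 2. Of the 2 lung, 2 kidney and adrenal, and 3 nerve genes tested, 1 each was called higher. The lung gene Sftpd was not well above background on any E14 array and rose at least 1.51-fold. Its call was lost without E18 replicate 1 and without E14 replicate 2. Lhx1, of the kidney and adrenal list, rose by 0.68 and the nerve gene Ncam1 by 0.51, and the probes of Ncam1 disagreed in sign.

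Liver cells other than hepatocytes changed unevenly. Endothelial genes had 15 of 27 called higher and 1 lower (median 0.50), with the sinusoidal lectin Clec4g at 1.76, the growth factor receptor Flt1 at 1.66, the scavenger receptors Stab1 and Stab2 at 1.37 and 1.29, and the general endothelial genes Cdh5 and Kdr at 1.05 and 0.88, while Pecam1, Tek, Tie1 and the sinusoidal Oit3 were not called (0.21, -0.05, 0.02 and 0.335). Stellate and mesenchymal genes had 7 of 22 called higher and 8 lower (median -0.20). Ecm1 rose by 1.72, Reln by 1.12 and Lrat, which stores vitamin A as esters, by 1.06, while Bambi fell by 1.31 and Pdgfra by 1.13. Another bright probe of Ecm1 rose by 0.32. Mesothelial genes had 2 of 8 called in each direction (25% each), near the 24.6% and 22.8% of all genes. Msln, mesothelin, read -1.65, -2.03 and -2.05 at E14 and 0.94, 0.99 and 0.77 at E18, and Wt1 fell by 0.77. The mesothelial genes called higher numbered 1 without E18 replicate 1.

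Collagens and matrix genes had 13 of 31 called higher and 4 lower (median 0.13). Fn1, fibronectin, which hepatocytes also secrete, rose by 3.34 and Col18a1, which hepatocytes also make, by 3.25. Lum, a proteoglycan of fibroblasts, fell by 1.41. Col1a1 was not called (-0.06), and Col1a2 fell by 0.58 but read 0.23 in the deposited gene table. Biliary genes had 8 of 15 called higher (median 0.57), or 5 within the first scan, with Spp1, osteopontin, at 3.70 and Sox9 at 0.74, while Krt7, a cytokeratin of bile ducts, and Hes1 were not called (-0.14 and -0.13).

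Genes for making RNA and ribosomes fell together by small amounts. Ribosome biogenesis had 27 of 30 called lower and none higher (median -0.88), against 22.8% of all genes. Npm1, nucleophosmin, read 3.76, 3.80 and 3.90 at E14 and 2.65, 2.30 and 2.22 at E18 (fall of 1.43, SE 0.13, limma adjusted p = 3.5e-06). Nola2 (Nhp2), of the particles that modify ribosomal RNA, fell by 1.28. RNA splicing had 32 of 42 called lower (median -0.67), with Lsm5 and Snrpg, small core proteins of the spliceosome, falling by 1.60 and 1.49. The large spliceosome proteins Prpf8 and Sf3b1 were not called (0.26 and -0.05).

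Ribosomal proteins had 42 of 71 called lower and none higher (median -0.60). The count was 27 without E14 replicate 2, 33 without E18 replicate 1, 53 within the first scan and 13 with scan as a block. Rpl14 read 2.13, 2.06 and 2.14 at E14 and 0.86, 0.80 and 0.67 at E18. Ribosomal protein probes may also read processed copies of these genes. Chromatin and DNA methylation genes had 15 of 26 called lower and 2 higher (median -0.44), with the assembly factor Chaf1b falling by 1.01 and the histone-binding Rbbp7 rising by 1.33. The chromatin genes called higher numbered 1 without E18 replicate 1.

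Replication and division genes remained far above the adult reference. DNA replication had 21 of 39 called lower and none higher (median -0.42), with array means of 2.25 to 2.37 at E14 and 1.75 to 1.87 at E18. Tyms, the thymidylate synthase, read 3.15, 3.22 and 3.16 at E14 and 2.26, 2.01 and 1.93 at E18, a fall of 1.11, and Rfc5, of the clamp loader, fell by 1.09. Mitosis genes had 11 of 40 called lower (27.5%, near the 22.8% of all genes) and 2 higher (median -0.25). The counts were 7 lower without E14 replicate 2 or without E18 replicate 1, and 0 higher without E14 replicate 2. Ccnb1 fell by 1.15, and the 2 called higher were Mki67 (0.59) and Pttg1 (0.36). Ccna2 and Top2a were not called (-0.01 and -0.09). Cyclins and cell cycle regulators had 7 of 34 called higher and 13 lower, with a median of 0.01 that was below 0 under 14 alternatives (lowest -0.25). The G1 kinase Cdk4 and its partner Ccnd1 fell by 1.15 and 1.09, and the growth arrest genes Btg1 and Cdkn1a rose by 2.36 and 1.16. A second bright probe of Btg1 rose by 1.07. E2F letters (TTTCGCGC or TTTGGCGC, both strands) were in 10 of the 38 promoters found for the replication list (26.3%). CCAAT was in 29 of 36 promoters of the mitosis list (80.6%). Over all promoters the shares were 0.813% and 37.4%, but those include genes not tested here, so the shares are not compared. Other motifs were also searched in every list, and most of their shares are not given here. Whether these letters had a part in the falls was not tested.

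Of the 123 named genes that rose 8-fold or more, 77 were in 1 of the lists. Some of the others, chosen after their values were seen, were also enzymes of hepatocytes. Adh1, the alcohol dehydrogenase, read -4.27, -4.20 and -4.27 at E14 and 0.16, 0.35 and 0.20 at E18 (rise of 4.48, SE 0.14, limma adjusted p = 1.8e-09). Rgn, regucalcin, rose by 3.88, Pemt, which makes phosphatidylcholine, by 3.85, Pfkfb1, which sets fructose-2,6-bisphosphate in liver, by 3.77 and Hsd17b13, a lipid droplet protein, by 3.65. Ndrg1, which responds to hypoxia and differentiation, read 0.44, 0.12 and 0.51 at E14 and 4.03, 3.99 and 4.14 at E18. Rnf213, listed as D11Ertd759e, rose by 3.58 and Iigp1, an interferon-induced GTPase, by 3.56. Among falls outside the lists, Itm2a, a membrane protein, read 5.69, 5.89 and 5.72 at E14 and 3.89, 3.85 and 3.89 at E18, the galectin Lgals1 fell by 1.87, and Mrap, the accessory protein of the melanocortin 2 receptor, by 1.62.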

How the data were processed

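Per the file headers, the arrays were scanned and read with Agilent Feature Extraction 9.5.1.1, which the authors ran before they deposited a mean and a background intensity for each dye and spot. The submitters' processing notes name limma. The authors' deposited table of lowess-normalized log2 ratios, averaged over the probes of a gene, served as an alternative. Here, control spots and outlier spots (177 to 356 per array) were left out, backgrounds were corrected with normexp (offset 50) and dyes balanced by loess within each array. Probes were kept if their Cy5 signal was well above background throughout 1 or more stages and no stage lacked more than 1 value, and each gene was read from its brightest probe. limma 3.58.1 (R 4.3.3) fitted all 11 arrays, which share one estimate of the spread, with Benjamini-Hochberg adjustment over 16697 genes and a threshold of 0.05. Tests were checked on simulated data. Where a gene was not well above background on any array of a stage, its fold is a bound from the Cy5 channel, against the lowest signal well above background. Symbols are those of the array, with a current RefSeq symbol in parentheses. Promoters came from RefSeq (GRCm38.p6).

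The rule for named genes took the 15 largest rises and falls that passed the threshold without overlap and were well above background at the higher stage and, in each list, up to 2 of each, and further members were named after their values were seen. Members and lists were chosen with earlier results of these data known, and no list holds a gene of the study's RXR-α and Wnt lists. In all, 58 lists covered 1261 tested genes and 75 further entries were not tested. A few genes are not reported here. The number of arrays limits the precision.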

Additional observations from a re-analysis of the deposited data

How the results depend on the processing

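Most results kept their direction. Across alternatives, the median of all genes lay between -0.07 and 0.03. Among list medians, 14 changed sign under an alternative, all of them small at the outset except the globins. Genes at least 2-fold higher numbered 2634 with background subtracted and 2616 with the scanner's processed signals. Genes at least 2-fold lower numbered 804 and 1330 under these, 745 with the Cy5 channel alone and 796 in the deposited gene table. Genes lower numbered 2534 in that table and 2345 with scan as a fixed block, a fit that kept 65% of all calls. Leaving out single arrays gave 3511 to 3919 higher and 2978 to 3464 lower genes.

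With the Cy5 channel alone the medians turned to -0.28 for glycolysis, -0.13 for imprinted genes, -0.17 for oxidative phosphorylation and -0.0336 for the citric acid cycle, and single genes to -0.13 for Hba-a1, -0.14 for Hbb-b1 and -0.10 for Slc4a1. Centring arrays on the median turned the citric acid cycle to -0.0298. Restricting the test to probes bright at every stage, which left fewer genes, turned the median of the globins to 0.70 and of the megakaryocyte list to 0.30. The erythroid median became 0.17 with background subtracted and 0.0285 with processed signals, and Col1a2 read 0.23 in the deposited gene table. The cause of the other changes was not tested.

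Of 164 named genes, 25 lost their call in the deposited gene table, 24 with scan as a block, 19 with background subtracted, 16 with processed signals, 12 within the first scan, and 6 to 13 without single arrays. Deviations of arrays with the same replicate number had correlations of -0.256, -0.0897 and 0.0207, and those with different numbers -0.149 to 0.246. With 3 arrays a stage these values cannot show whether the numbers pair the samples, and the main fit assumed no pairing. A replicate block gave 4520 higher and 4390 lower genes and kept 98.6% of the calls. The methods' t-test on the same values gave 4621 higher and 4577 lower genes unadjusted and 3999 and 3781 after adjustment. Probes near background limit folds of dim genes.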

Other observations

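The sex-linked transcripts did not separate the stages but differed between arrays of the same stage. Xist, the RNA of the inactive X chromosome, read 0.08, 3.19 and 0.14 at E14 and 4.45, 0.02 and -0.02 at E18. Eif2s3y, a gene of the Y chromosome, read 0.66, -3.05 and 0.61 at E14 and -2.71, 0.62 and 0.28 at E18. The 2 arrays with a high Xist and a low Eif2s3y value were E14 replicate 2 and E18 replicate 1, 1 of each stage. These are also the arrays that stood apart for several of the largest falls (E14 replicate 2) and for embryonic globins (E18 replicate 1), and whether sex had a part in those values was not tested.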
